A study of Mus musculus with 18 samples.

Results

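The genes of the replication-dependent histone clusters were compared between mouse lymphomas and thymus. A gene belonged to the set when its symbol, or a former symbol in RefSeq, began with Hist1h, Hist2h, Hist3h or Hist4h and when a probe naming it alone had a value on at least 14 of the 18 arrays. The annotation of the array carries only current symbols, and 0 of them match the older pattern, so the members were found through their former names. Of 70 RefSeq genes with such a name, 36 met the rule, among 18147 named genes measured in all. They comprise 6 genes of linker histone H1, 10 of H2A, 11 of H2B, 3 of H3 and 6 of H4. Of the 36, 26 lie in the Hist1 cluster of chromosome 13, 6 in the Hist2 cluster of chromosome 3, 3 in the Hist3 cluster of chromosome 11, and 1 is Hist4h4 (H4f16) on chromosome 6. Values were present in all 18 lymphomas for 35 members, while H2bc6 had 16 and lay nearest to the limit. A further probe of H4f16 with 6 values was left out (mean log2 ratio 0.16 ± 0.33, SD, n = 6).

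Core histones H2A, H2B, H3 and H4 form the protein spool of the nucleosome, and linker histone H1 binds where DNA enters and leaves it. Most of these genes lack introns, are transcribed in S phase while DNA is copied, and give messengers that end in a stem-loop bound by Slbp in place of a poly(A) tail. Many family members encode the same or nearly the same protein, and a few also make polyadenylated messengers in cells that have stopped dividing. In thymus, fast-cycling immature thymocytes supply much of the dividing population.

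All 18 lymphomas came from mice lacking Atm, mTerc and p53 together (Atm-/-, mTerc-/-, p53-/-), and their ages are not stated. Atm is a kinase that responds to DNA breaks, mTerc is the RNA from which telomerase copies telomere repeats, and p53 is a transcription factor of the damage response. The reference was thymus RNA from healthy p53-heterozygous mice aged 3 weeks, shared by every array. The labels do not say whether each lymphoma came from a separate mouse or how many mice gave the reference, and tumour-free thymus of the knock-out genotype was not analysed here, so tumour and genotype cannot be told apart. Each lymphoma and the reference were labelled with Cy3 and Cy5 on 2-colour Agilent arrays with a dye swap, and each lymphoma has 1 ratio per probe. The labels give the molecule as total RNA, although the title and the labelling protocol speak of DNA, and the values were treated as RNA. In these bulk samples, fewer cells of a type and less RNA per cell cannot be told apart.

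Values below are log2 ratios of lymphoma over thymus, so 1 stands for a 2-fold higher level and -1 for a 2-fold lower level. The log base of the deposited values (taken as 10) and their direction are not stated. Lymphoma over thymus is the likely direction, because it places the targeted genes Atm (mean -0.65) and Terc (mean -1.47) below the reference in 14 or more of 18 lymphomas. Missing values made up 2.27% to 7.79% of an array. Lymphomas 7, 12 and 14 stood apart, with median correlations to the other arrays of 0.10, 0.31 and 0.25 over all genes, against at least 0.59 for each of the others. The T lineage markers were lower for 9 of 11 and the thymic epithelium markers for 11 of 11. The mean of the thymic epithelium markers ran from -4.84 in lymphoma 3 to 0.20 in lymphoma 12. It was -0.50 in lymphoma 7 and -2.87 or lower in the others. The mean of the T lineage markers ran from -3.22 in lymphoma 14 to -0.13 in lymphoma 18. That of the macrophage markers ran from -3.06 in lymphoma 15 to 1.89 in lymphoma 14, and that of the fibroblast and matrix markers from -3.15 in lymphoma 18 to 3.33 in lymphoma 14. The part of cell makeup in the histone results was not tested.

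The promoters of the somatic H1 genes are shown first, because the largest increases were among H1 genes, and those of 4 H2B genes follow, because H2B was the class in which most genes fell. Of the 4, 3 hold the octamer, and H2bu2, the H2B gene with a listed promoter that fell most, does not. Sequences are RefSeq promoters of build GRCm38.p6, read 5′ to 3′ along each gene. Capitals mark AAACACA (the H1 box), CCAAT (which reads ATTGG when it lies on the other strand), the TATA box with its letters TATAAA (or TTTATA on the other strand), and the octamer ATTTGCAT, which is bound by Pou2f1 in H2B promoters. The H1 stretches run from 130 to 21 bases before the annotated start: H1f1 chr13:23763538-23763647 (plus strand), H1f5 chr13:21780646-21780755 (minus strand), H1f3 chr13:23554902-23555011 (plus strand), H1f4 chr13:23622579-23622688 (minus strand) and H1f2 chr13:23738677-23738786 (plus strand).
H1f1: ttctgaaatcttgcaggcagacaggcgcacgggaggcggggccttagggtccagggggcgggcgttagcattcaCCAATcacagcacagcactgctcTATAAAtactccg
H1f5: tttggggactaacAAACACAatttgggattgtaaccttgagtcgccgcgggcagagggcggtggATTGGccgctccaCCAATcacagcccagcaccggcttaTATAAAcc
H1f3: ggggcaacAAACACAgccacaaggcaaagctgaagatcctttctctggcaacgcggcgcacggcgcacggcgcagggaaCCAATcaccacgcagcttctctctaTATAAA
H1f4: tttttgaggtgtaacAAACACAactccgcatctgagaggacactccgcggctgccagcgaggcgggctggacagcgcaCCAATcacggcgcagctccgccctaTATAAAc
H1f2: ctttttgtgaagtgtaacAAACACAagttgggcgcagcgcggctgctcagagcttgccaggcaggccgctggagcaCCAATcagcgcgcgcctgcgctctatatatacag
The H2B stretches are H2bc12 chr13:22035751-22035810 (plus strand) and H2bc14 chr13:21721974-21722033 (plus strand), from 70 to 11 bases before the start, H2bc18 chr3:96269610-96269669 (plus strand), and H2bu2 chr11:58948821-58948880 (plus strand), both from 90 to 31 bases before it.
H2bc12: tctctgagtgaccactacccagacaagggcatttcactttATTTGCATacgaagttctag
H2bc14: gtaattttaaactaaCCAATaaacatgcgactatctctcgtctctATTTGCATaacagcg
H2bc18: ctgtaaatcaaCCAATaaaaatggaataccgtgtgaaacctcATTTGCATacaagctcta
H2bu2: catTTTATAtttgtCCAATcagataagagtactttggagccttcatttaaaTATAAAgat
H1f5, H1f3, H1f4 and H1f2 hold the H1 box 117, 122, 115 and 112 bases before the start, and H1f1 has no exact match to these letters in its window.

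The 4 motifs were searched on both strands in the 250 bases before and 50 bases after the start of every RefSeq gene listed (32851 promoters), and none of them contains another. Of the 36 members, 31 had 1 or more promoters listed, 32 promoters in all, and H2bc4, H2bc21, H2bu1-ps, H3c1 and H4c14 had none listed. AAACACA was in 5 of 6 H1 promoters, 2 of 10 for H2A, 2 of 9 for H2B and 0 of the H3 and H4 promoters, against 7.18% of all promoters. ATTTGCAT was in 6 of 10 H2A and 5 of 9 H2B promoters and in 0 of the H1, H3 and H4 promoters, against 1.74% of all. H2bc6, which did not pass, holds it as well as H2bc1, H2bc12, H2bc14 and H2bc18, which fell. CCAAT was in 29 of 32 member promoters (37.4% of all) and TATAAA in 20 of 32 (13.6% of all). The H1 box was held both by H1 genes that rose and by H1f2, which did not. The windows of H2bc1 and H2ac1, neighbours read in opposite directions, overlap and share matches. A match describes letters in a window and does not show binding.

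Histone genes moved in both directions. Across the 18147 genes, 57.8% passed the test against 0 (limma, Benjamini-Hochberg adjusted p under 0.05), 29.9% higher and 27.9% lower in lymphoma. Of the 36 histone genes, 9 rose (25%), 10 fell (27.8%) and 17 did not pass, so the share that passed, 52.8%, was near that of all genes. The median of their mean log2 ratios was -0.14, against 0.05 over all genes. At least 2-fold increases were seen for H1f1 and H1f5 (4.3% of all genes) and at least 2-fold decreases for H2bc4 and H2bu2 (10.9% of all genes). Histone genes also varied between lymphomas, with SDs from 0.34 to 1.41 and a median SD of 0.73, against a median of 0.53 over all genes. A gene value is the mean of its probes, and 30 of the 36 histone genes have 1 probe, whereas 7702 of the 18147 genes have more than 1. The part of probe number in these SDs was not tested.

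**Figure D1:**
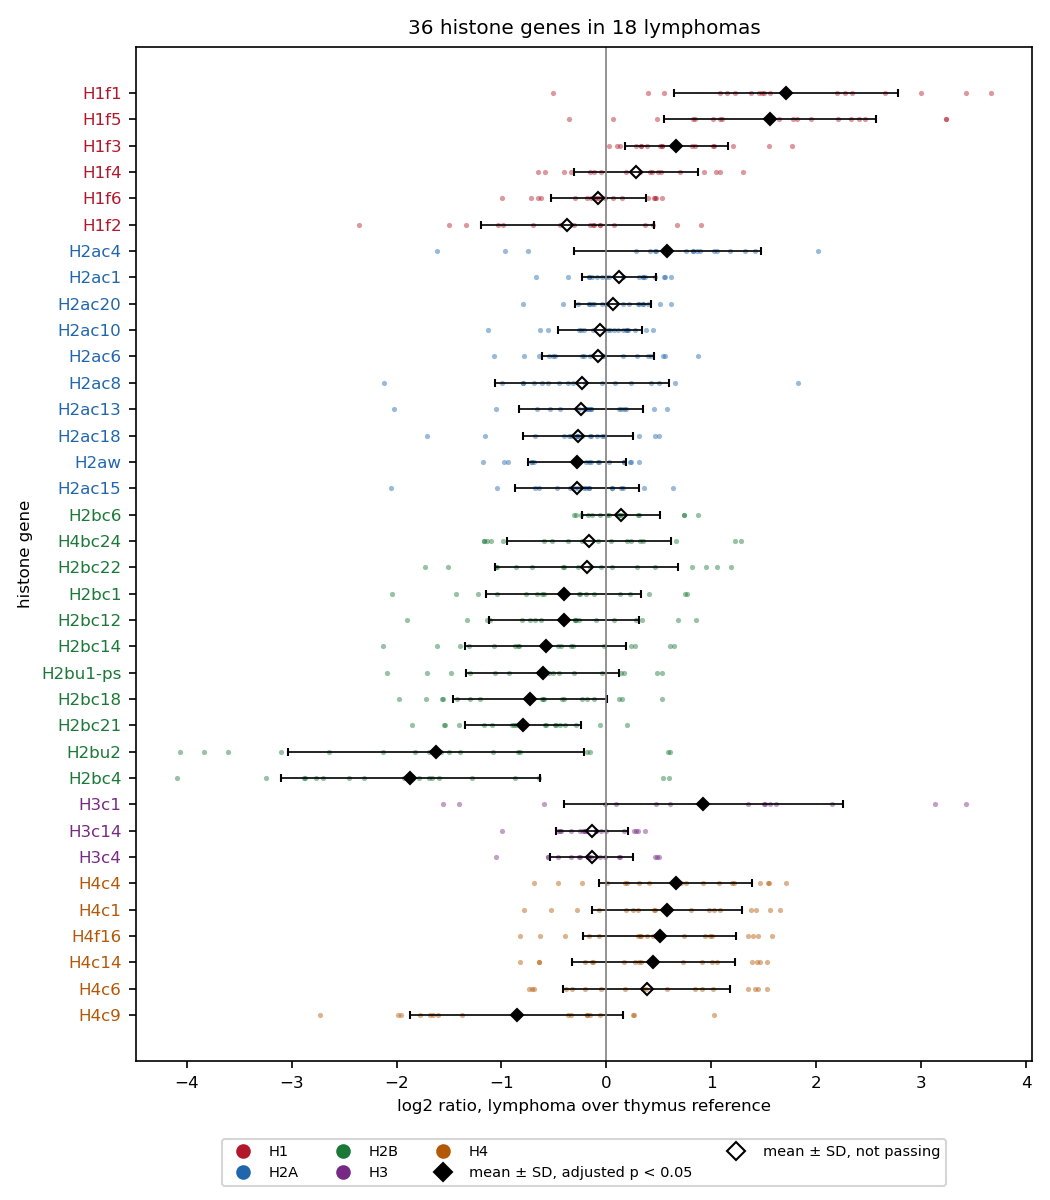
Log2 ratio of lymphoma over thymus (x axis) for the 36 histone genes (y axis, coloured by class and ordered by mean within it); small points are single lymphomas, diamonds and bars the mean ± SD, and filled diamonds passed at an adjusted p under 0.05. H1f1 and H1f5 lie farthest to the right on average, H2bc4 and H2bu2 farthest to the left, and the H2B genes that passed all lie left of 0.

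The classes differed in their counts. H1 had 3 genes that rose and 0 that fell among 6, with a median of 0.48. H4 had 4 that rose and 1 that fell among 6, also with a median of 0.48. H2B had 0 that rose and 8 that fell among 11, with a median of -0.58. H2A had 1 that rose and 1 that fell among 10 (median -0.16), and H3 had 1 that rose and 0 that fell among 3 (median -0.13). These counts describe the genes measured and were not tested as sets, and several genes share what is nearly a single profile, as described further on.

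Among linker histones, H1f1 (Hist1h1a) encodes H1.1, a subtype known from thymus, spleen and testis. Its log2 ratio ran from -0.51 in lymphoma 14 through a median of 1.49 to 3.67 in lymphoma 2. All lymphomas but number 14 lay above the thymus. The mean was 1.71 ± 1.07 (SD, n = 18), 3.28-fold higher, with a limma adjusted p of 4.89e-06. H1f5 (Hist1h1b) encodes H1.5, a subtype made mainly in dividing cells. It ran from -0.35 in lymphoma 7 through 1.71 to 3.24 in lymphoma 6, and all lymphomas but number 7 lay above the thymus. Its mean was 1.56 ± 1.01 (2.95-fold higher, adjusted p 7.33e-06).

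H1f2 (Hist1h1c) encodes H1.2, a subtype that many resting cells also make. It ran from -2.36 in lymphoma 5 through -0.14 to 0.90 in lymphoma 15, below 0 in 13 lymphomas and above it in 5. Its mean of -0.37 ± 0.83 did not pass (adjusted p 0.0912), and it passed when lymphoma 14 (-0.43, adjusted p 0.0499) or lymphoma 15 (-0.45, adjusted p 0.0429) was left out. H1f6 (Hist1h1t), the H1 of spermatocytes, had a mean of -0.08 ± 0.45 (adjusted p 0.561).

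H1f3 (Hist1h1d, H1.3) and H1f4 (Hist1h1e, H1.4) each had a pair of probes, and these disagreed. As the mean of its probes, H1f3 ran from 0.02 in lymphoma 14 through 0.53 to 1.77 in lymphoma 2, above 0 in 18 of 18, and rose (0.67 ± 0.49, adjusted p 6.67e-05). Its first probe rose with a mean of 1.71 ± 0.95, 3.27-fold higher and above 0 in 17 of 18, whereas its second had a mean of -0.37 ± 0.70, below 0 in 14 of 18, and did not pass. The probe chosen therefore sets the direction of H1f3.

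The first probe of H1f4 ran from 0.22 in lymphoma 14 through 1.73 to 3.07 in lymphoma 5. It lay above 0 in every lymphoma and rose to a mean of 1.67 ± 0.90 (3.18-fold, adjusted p 8.19e-07 over all probes). The second ran from -2.06 in lymphoma 7 through -1.26 to 0.19 in lymphoma 17. It lay below 0 in all lymphomas but number 17 and fell to -1.10 ± 0.70 (2.14-fold lower, adjusted p 7.50e-06). Their mean, 0.29 ± 0.59 (adjusted p 0.0789), is thus an average of opposite values and did not pass. It passed when lymphoma 7 (0.34, adjusted p 0.0341) or 11 (0.34, adjusted p 0.0406) was left out.

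Across the 18 lymphomas the probes of H1f3 had r = -0.31 with each other and those of H1f4 r = 0.07, against a median of 0.52 over 7702 genes with more than 1 probe. The rising probe of H1f4 went with H1f5 (r = 0.85) and the rising probe of H1f3 with H1f1 (r = 0.87). These correlations are over lymphomas that share arrays, reference and cell makeup. Probes passing in opposite directions were found for 616 of those 7702 genes. The probe sequences were not used here, so which transcripts or family members each probe reads was not tested.

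**Figure D2:**
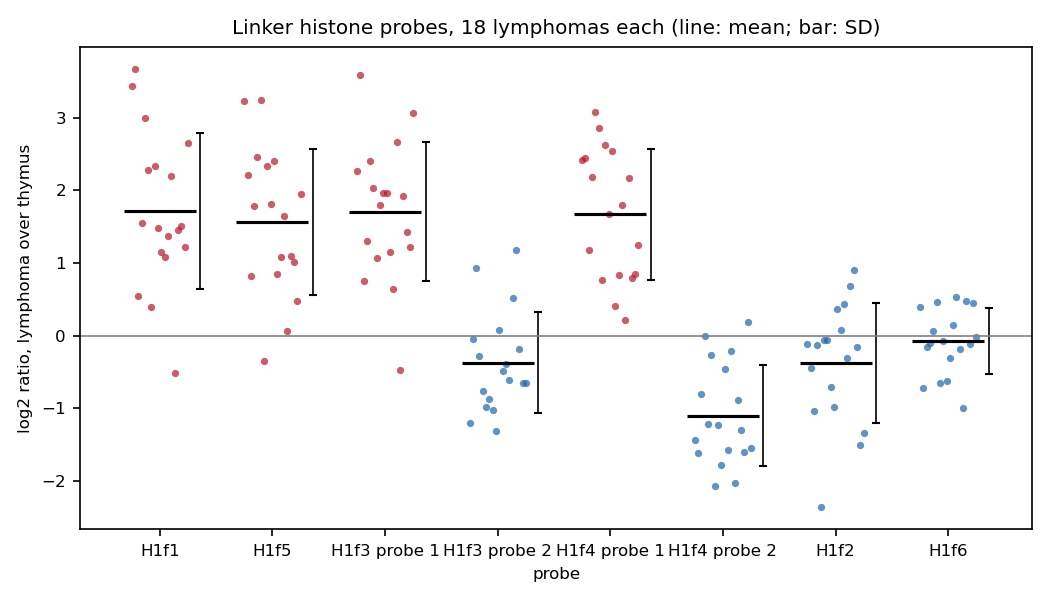
Log2 ratio of lymphoma over thymus (y axis) for each probe of a linker histone gene (x axis), with 1 point per lymphoma in order of its number, a line at the mean and a bar of ± SD; probes with a mean above 0 are red and the others blue. The first probes of H1f3 and H1f4 lie as high as H1f1 and H1f5, and their second probes lie mostly below 0.

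The somatic H1 genes were compared within each lymphoma by a two-sided exact sign-flip permutation test over the 18 differences, with adjustment over 10 pairs, and 9 pairs passed. H1f1 exceeded H1f2 by 2.09 (higher in 17 of 18 lymphomas, adjusted p 1.91e-04), and H1f5 exceeded it by 1.94 (16 of 18, adjusted p 1.91e-04). H1f1 and H1f5 differed by 0.15 (95% interval -0.18 to 0.48, adjusted p 0.353). H1f1, H1f5 and H1f2 have 1 probe each, as do 30 of the 36 histone genes, so the agreement of probes could not be examined for these 3 comparisons. The other 7 pairs include H1f3 or H1f4, whose probes disagree. Without lymphomas 1, 2, 3, 5, 15, 17 and 18, which have the lowest macrophage marker means, the difference of H1f1 and H1f5 was -0.09 (adjusted p 0.640).

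Of the pairs with H1f3 or H1f4, H1f1 exceeded H1f3 by 1.05 and H1f4 by 1.43, and H1f5 exceeded them by 0.90 and 1.28. H1f2 lay below H1f3 by a difference of -1.04 and below H1f4 by -0.66 (adjusted p 0.0211). H1f3 exceeded H1f4 by 0.38 (adjusted p 0.0340). With a single probe per gene, H1f3 minus H1f4 was -2.04, H1f1 minus H1f4 was 0.04 (adjusted p 0.908) and H1f5 minus H1f4 was -0.11 (adjusted p 0.503). The order of H1f3 and H1f4 among the subtypes is thus not settled by these arrays.

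H2B showed the most decreases. H2bc4 (Hist1h2bc) encodes a canonical H2B of the Hist1 cluster. Its log2 ratio ran from -4.09 in lymphoma 5 through a median of -1.86 to 0.60 in lymphoma 12. Only lymphomas 12 and 14 lay above the thymus. The mean was -1.87 ± 1.23 (SD, n = 18), 3.65-fold lower, with an adjusted p of 8.78e-06. H2bu2 (Hist3h2ba), an H2B of the Hist3 cluster, ran from -4.06 in lymphoma 14 through -1.54 to 0.61 in lymphoma 11, and 16 of 18 lymphomas lay below 0. Its mean was -1.63 ± 1.41 (3.08-fold lower, adjusted p 1.77e-04), and its SD was the largest among the histone genes.

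H2bc21 (Hist2h2be) encodes H2BE, a variant studied in olfactory neurons. It ran from -1.85 in lymphoma 14 through -0.72 to 0.20 in lymphoma 17, which alone lay above 0, and had a mean of -0.80 ± 0.55 (1.74-fold lower, adjusted p 2.75e-05). H2bc18 (Hist2h2bb), also of the Hist2 cluster, ran from -1.98 in lymphoma 14 through -0.60 to 0.53 in lymphoma 9. It was below 0 in 15 of 18 lymphomas, with a mean of -0.73 ± 0.74 (adjusted p 9.27e-04). H2bu1-ps (Hist3h2bb), a transcribed pseudogene, ran from -2.09 in lymphoma 3 to 0.53 in lymphoma 2 and averaged -0.61 ± 0.73 (adjusted p 0.00382). Lymphoma 3 was lowest for this gene and for H2bc14, H2bc12 and H2bc1 as well.

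H2bc14 (Hist1h2bm), a canonical H2B, fell to -0.58 ± 0.76 (below 0 in 14 of 18, adjusted p 0.00713). H2bc12 (Hist1h2bk), known in human cells for a polyadenylated messenger, had a mean of -0.41 ± 0.71 (below 0 in 13 of 18, adjusted p 0.0369). H2bc1 (Hist1h2ba), the testis form TH2B, had a mean of -0.41 ± 0.74 (below 0 in 13 of 18, adjusted p 0.0435). The first of the H2bc12 probes did not pass (-0.25 ± 0.67, adjusted p 0.174 over all probes), and the second fell (-0.57 ± 0.76, adjusted p 0.00831). H2bc12 lost its call when any of 8 lymphomas (3, 5, 6, 7, 8, 11, 16 or 17) was left out, with adjusted p up to 0.0724. H2bc1 lost it without any of those or of 9, 10, 13 and 14, with adjusted p up to 0.0842. The H2B genes that did not pass were H2bc22 (-0.19), H4bc24, the former Hist1h2br (-0.17), and H2bc6 (0.14, n = 16).

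In H2A, H2ac4 (Hist1h2ab), a canonical H2A, ran from -1.61 in lymphoma 14 through 0.82 to 2.01 in lymphoma 18. It lay above 0 in 15 of 18 lymphomas and had a mean of 0.58 ± 0.89 (adjusted p 0.0171). H2aw (Hist3h2a), the H2A of the Hist3 cluster, averaged -0.28 ± 0.47 and was called lower (adjusted p 0.0390), but its 3 probes spread widely. The first rose (0.76 ± 0.63, above 0 in 15 of 18), the second did not pass (-0.15 ± 0.49), and the third fell (-1.44 ± 0.96, below 0 in 18 of 18). Its call was lost without any of 7 lymphomas (3, 7, 8, 9, 13, 14 or 17). The other 8 H2A genes had means from -0.28 (H2ac15) to 0.12 (H2ac1, the testis form TH2A) and did not pass. Of the Hist2 genes among them, H2ac18 had a mean of -0.27 ± 0.53 (adjusted p 0.0655) and H2ac20 one of 0.06 ± 0.36 (adjusted p 0.575). H2ac18 passed as lower without lymphoma 9, 16 or 17 (-0.30 to -0.32, adjusted p 0.0339 to 0.0458), and H2ac15 without lymphoma 17 (-0.34, adjusted p 0.0383). H2ac8 spread most of the 8, from -2.12 in lymphoma 7 to 1.83 in lymphoma 15.

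In H3, H3c1 (Hist1h3a), a canonical replication-dependent H3, ran from -1.56 in lymphoma 14 through 0.93 to 3.43 in lymphoma 18. It lay above 0 in 14 of 18 lymphomas, with a mean of 0.92 ± 1.33 (1.90-fold higher, adjusted p 0.0111) and the second-widest SD of the set after H2bu2. H3c14 (Hist2h3c1, -0.13 ± 0.34, adjusted p 0.192) and H3c4 (Hist1h3d, -0.14 ± 0.40, adjusted p 0.225) did not pass.

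In H4, whose genes encode nearly always the same protein, H4c4 (Hist1h4d) ran from -0.69 in lymphoma 14 through 0.74 to 1.71 in lymphoma 2 and lay above 0 in 15 of 18. Its mean was 0.66 ± 0.73 (1.58-fold higher, adjusted p 0.00209). Of its probes the first rose (0.92 ± 0.70) and the second did not pass (0.40 ± 0.79, adjusted p 0.0643 over all probes). H4c1 (Hist1h4a, 0.58 ± 0.72, adjusted p 0.00470), H4f16 (Hist4h4, 0.51 ± 0.73, adjusted p 0.0128) and H4c14 (Hist2h4, 0.45 ± 0.78, adjusted p 0.0349) also rose, though they lie on chromosomes 13, 6 and 3. H4c6 (Hist1h4f) had a mean of 0.38 ± 0.79 and did not pass (adjusted p 0.0719), but passed without lymphoma 3, 7 or 14 (0.45, adjusted p 0.0352 to 0.0381). H4c9 (Hist1h4i) went the other way, from -2.73 in lymphoma 5 through -0.62 to 1.03 in lymphoma 1. It was below 0 in 15 of 18 lymphomas and fell to -0.85 ± 1.02 (1.81-fold lower, adjusted p 0.00310).

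The increases outside H1 did not pass in a smaller set of lymphomas. Without the 7 lymphomas of lowest macrophage marker means (1, 2, 3, 5, 15, 17 and 18), 11 remain, and 3 histone genes rose in place of 9, namely H1f1, H1f3 and H1f5. The share of all genes that rose was also smaller in those 11, 19.6% in place of 29.9%, and 20.7% fell. The other 6 kept means above 0, at 0.40 for H2ac4 (adjusted p 0.215), 0.56 for H3c1 (0.141), 0.44 for H4c4 (0.0744), 0.38 for H4c1 (0.0937), 0.30 for H4f16 (0.184) and 0.24 for H4c14 (0.320). In all 18 lymphomas the means of these 6 genes were 0.58, 0.92, 0.66, 0.58, 0.51 and 0.45 in the same order, so each was smaller in the 11. The parts of the smaller means and of the fewer arrays in the lost calls were not tested. H4c14 also lost its call when any of lymphomas 1, 2, 4, 6, 9, 10, 15 or 18 alone was left out (adjusted p up to 0.0693). Without lymphomas 7, 12 and 14, which stood apart, 11 histone genes rose and 8 fell (31.7% and 30.3% of all genes). H1f1 then had a mean of 1.97, H1f5 of 1.82, H2bc4 of -2.20 and H2bu2 of -1.35, and each still passed. H4c6 (0.53, adjusted p 0.0181) and H1f4 (0.39, adjusted p 0.0245) joined those that rose and H1f2 (-0.52, adjusted p 0.0305) those that fell, whereas H2aw, H2bc1 and H2bc12 no longer passed (adjusted p 0.149, 0.0788 and 0.0575).

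Probes of different histone genes often gave almost the same values. Probes were grouped where a pair had r of at least 0.95 over the lymphomas and a mean absolute difference of at most 0.2, limits chosen after the values were seen. Probes linked through another probe were joined as well, so not every pair in a profile met both limits. The largest mean absolute difference was 0.36 in the H2B profile and 0.23 in the H4 profile, and the lowest r was 0.92 in an H2A profile. The 43 probes of the 36 genes then formed 28 profiles, of which 5 held more than 1 probe (20 probes of 18 genes) and 23 held a single probe. A first profile joined H4c1, H4c4, H4c6, H4c14 and H4f16 (median r 0.98, mean log2 ratio 0.46 ± 0.76), which lie on chromosomes 13, 3 and 6. It lay above 0 in 13 of 18 lymphomas. The H2B profile of H2bc1, H2bc12, H2bc14 and H2bu1-ps (median r 0.99) had a mean of -0.48 ± 0.73, from -2.01 in lymphoma 3 to 0.73 in lymphoma 2. The remaining shared profiles were those of H2ac10, H2ac13, H2ac15, H2ac18 and H2aw (median r 0.97, mean -0.24), of H2ac1, H2ac10 and H2ac20 (median r 0.98, mean 0.11), and of H3c4 and H3c14 (r = 0.98, mean -0.14).

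Whether the probes of a shared profile read the same messengers was not tested, because probe sequences were not used. The 4 increases in H4 and 4 of the decreases in H2B may therefore not be that many separate measurements. The H4c4 probe that rose (0.92) had a profile of its own, and the H4c4 probe in the H4 profile did not pass (0.40). Counted by profile, 8 rose, each a single probe, and 7 fell, likewise single probes. In the H4 profile 3 of 5 probes rose, in the H2B profile 4 of 5 fell, and the other shared profiles held none that passed. Counted by probe, 11 of 43 rose (25.6%, against 29.6% of all probes) and 11 fell (25.6%, against 25.9%). H1f1, H1f5, H2bc4, H2bu2, H3c1, H4c9 and H2bc21 each had a profile of their own.

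**Figure D3:**
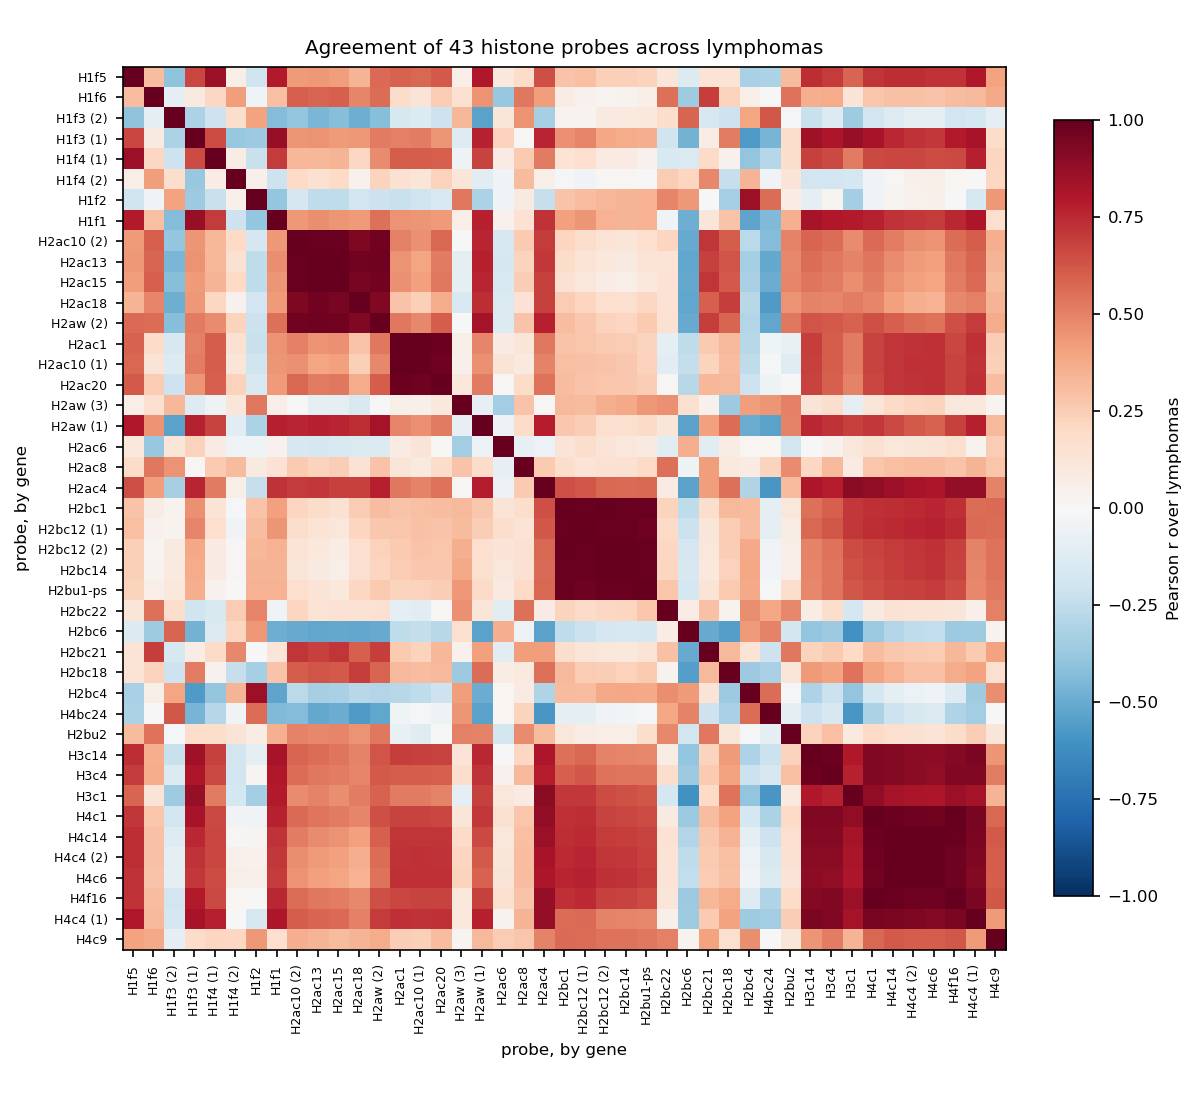
Pearson correlation over lymphomas (colour, -1 to 1) between the 43 histone probes, ordered by class and profile on both axes; a number in brackets tells probes of a gene apart. Dark red squares on the diagonal are the shared profiles of H2A, H2B, H3 and H4, and the probes of H1f3 and H1f4 do not pair with each other.

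The lymphomas differed in how many histone genes lay above the thymus. The median over the histone genes was highest in lymphoma 15 (0.38, with 27 of 36 genes above 0) and lowest in lymphoma 14 (-0.69, with 8 of 36 above 0). Lymphoma 7 (5 genes above 0) and lymphoma 3 (7 genes) were low as well. Lymphoma 14 was the lowest of all for H1f1, H2ac4, H3c1 and 4 of 6 H4 genes and had the lowest mean of the S phase genes (-0.72), the lowest T lineage mean (-3.22) and the highest fibroblast and matrix mean (3.33). The part of these in its histone values was not tested. Lymphoma 3 was low in every core histone class, with medians of -1.90 in H2B, -0.65 in H2A, -0.56 in H3 and -0.64 in H4. Its H1 median was 0.37 and its S phase mean 0.57. Lymphoma 18 had the highest H4 median (1.53) and the highest H3c1, and lymphoma 2 the highest H1 median (1.10).

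**Figure D4:**
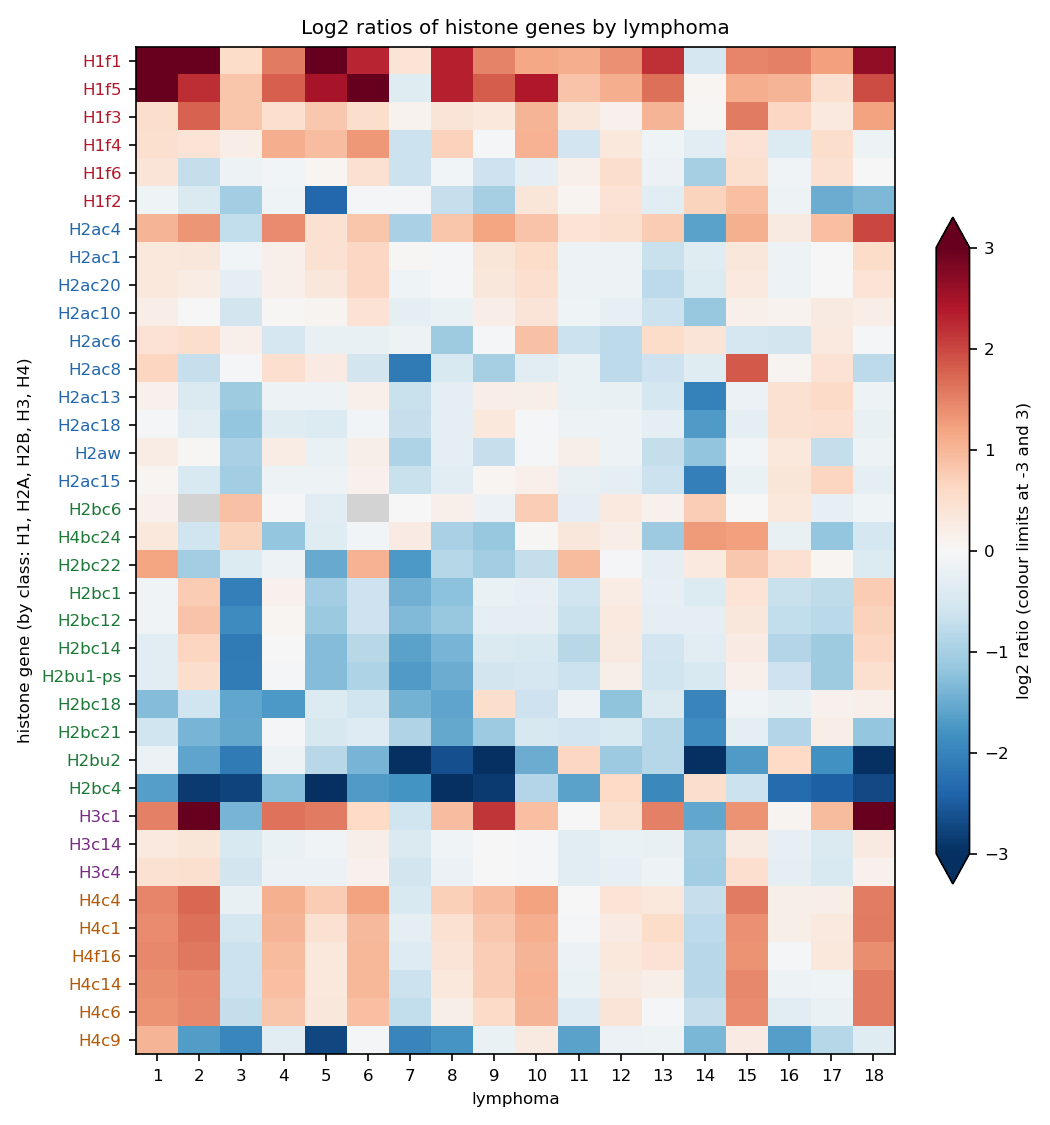
Log2 ratio of lymphoma over thymus (colour, with limits at -3 and 3) for each histone gene (y axis, by class) in each of the 18 lymphomas (x axis); grey marks a missing value. H1f1 and H1f5 are red in most columns, H2bc4 and H2bu2 blue in most, and the columns of lymphomas 3, 7 and 14 are blue across much of the set.

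The histone genes did not vary as a single block. Over the 630 pairs, the correlation across lymphomas had a median of 0.34 and ran from -0.61 to 0.996. The following correlations are each over the 18 lymphomas, which share arrays, reference and cell makeup, and are given as descriptions. H1f1 and H1f5 had Pearson's r = 0.80 and Spearman's rho = 0.79 (r = 0.71 without the 2 farthest lymphomas). H3c1 and H2ac4 had r = 0.91 and rho = 0.86 (r = 0.86 without the 2 farthest). By correlation over 17000 genes with complete values, the genes most like H3c1 were H2ac4, H4c1 (r = 0.88) and H4f16 (r = 0.87), all histone genes. For H1f1 they were Nr2c2 (r = 0.87), Fbxo5 (r = 0.86) and Nsd2 (r = 0.85), and for H1f5 Zfp871 (r = 0.87), Cux1 (r = 0.86) and Arid2 (r = 0.86).

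H2bc4 and H1f2 went together, apart from these. Some other histone genes went with H2bc4 and H1f2 less closely, among them H4bc24 (r = 0.56 with each), H2bc22 (0.46 and 0.49) and H4c9 (0.47 and 0.44). H4c9, too, was lowest in lymphoma 5. The gene most like H2bc4 was H1f2 (r = 0.85, rho = 0.90, and r = 0.88 without lymphomas 12 and 14), followed by Ctsl (r = 0.85), a lysosomal protease, and Raph1 (r = 0.83). Lymphoma 5 was the lowest for both genes, and lymphomas 12, 14 and 15 were the 3 highest for both. H2bc4 and H1f1 ran against each other (r = -0.53, rho = -0.47, and r = -0.37 without lymphomas 12 and 14). The mean of 28 S phase genes had r = -0.68 and rho = -0.65 with H2bc4 (r = -0.70 without lymphomas 14 and 7) and r = -0.61 and rho = -0.75 with H1f2 (r = -0.73 without them). With H1f1 it had r = 0.63 and rho = 0.53, but r = 0.23 without lymphomas 14 and 7, so that relation rests on them. The inverse relation was not particular to H2bc4 and H1f2. With the class medians of H1, H2A, H2B, H3 and H4 the S phase mean had r = 0.44, 0.63, -0.19, 0.48 and 0.36. Without lymphomas 14 and 7 these were -0.34, -0.07, -0.58, -0.33 and -0.32. The fibroblast and matrix mean had r = 0.63 with H2bc4 and 0.68 with H1f2 (0.47 and 0.60 without lymphomas 14 and 18). The macrophage mean had r = 0.52 and 0.50 with them (0.64 and 0.77 without lymphomas 15 and 2, but 0.33 and 0.38 without lymphomas 7, 12 and 14). Without lymphomas 7, 12 and 14, the fibroblast and matrix mean had r = 0.53 and 0.65 with them and the S phase mean r = -0.60 and -0.70. The thymic epithelium mean had r = 0.46 with H2bc4 and 0.27 with H1f2 (0.25 and 0.09 without lymphomas 12 and 7). Whether other cells in the tumours carry these 2 messengers was not tested.

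**Figure D5:**
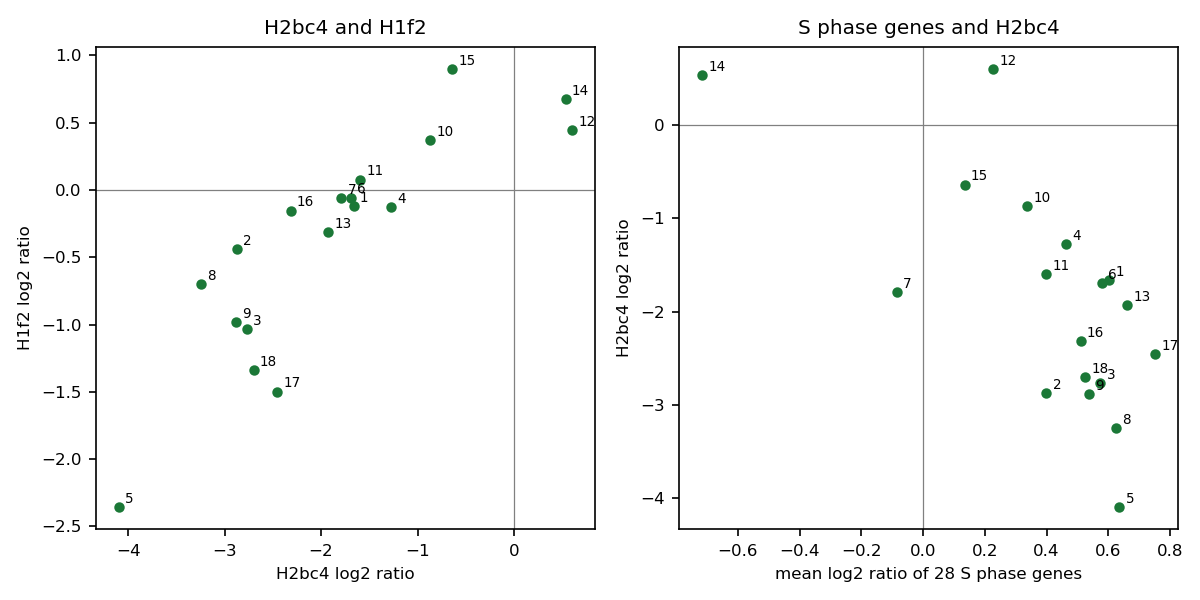
Left, log2 ratio of H2bc4 (x axis) against that of H1f2 (y axis); right, mean log2 ratio of 28 S phase genes (x axis) against the log2 ratio of H2bc4 (y axis); each point is a lymphoma with its number. H1f2 is higher where H2bc4 is higher (r = 0.85), and H2bc4 is lower where the S phase mean is higher (r = -0.68).

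Genes that process histone messengers or handle histone proteins were counted beside the histone genes, against the same background of 29.9% higher and 27.9% lower. Of 22 measured genes of histone messenger processing and turnover, 14 rose and 3 fell (median 0.34), and among S phase genes 15 of 28 rose and 3 fell (median 0.41). By smallest adjusted p, the processing genes were Tut7, a uridyl transferase that tags histone messengers for decay (-0.75 ± 0.29, 1.29e-07), Upf1, a helicase of that decay (0.97 ± 0.41, 1.57e-07), Nelfe, a subunit of the pausing factor NELF (0.77 ± 0.33, 2.45e-07), and Cpsf3, the nuclease that cuts the messenger end (0.90 ± 0.43, 5.33e-07). Upf1, Nelfe and Cpsf3 were above 0 and Tut7 below 0 in 18 of 18 lymphomas. Slbp and Npat were chosen after their values were seen, for their central roles. Slbp, the stem-loop binding protein, fell slightly (-0.28 ± 0.45, adjusted p 0.0323), and Npat, the cluster's coactivator, rose (0.36 ± 0.30, adjusted p 7.28e-04).

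The leading S phase genes were Tk1, thymidine kinase (1.05 ± 0.35), the helicase subunits Mcm2 (1.04 ± 0.49) and Mcm3 (0.99 ± 0.50), and Pole, the leading-strand polymerase (0.83 ± 0.40), with adjusted p from 1.19e-08 to 7.25e-07. Of 24 histone chaperones and importers, 9 rose and 2 fell (median 0.16). Chaf1a, a subunit of the assembly factor CAF, had 1.17 ± 0.36, the importin Ipo4 had 1.09 ± 0.35, Supt16 of the FACT complex had 1.83 ± 0.73 and Tonsl, which binds new histones at forks, had 1.11 ± 0.47, each above 0 in 18 of 18 lymphomas. Of 13 replication-independent histone variants, 1 rose and 6 fell (median -0.18). H3f3a, which encodes H3.3, fell to -0.86 ± 0.46, and H2az2 of the H2A.Z pair to -0.51 ± 0.38, both below 0 in 18 of 18. H1f8, the oocyte H1, fell to -0.93 ± 0.77, and H1f10, the linker variant H1X encoded outside the clusters, rose to 0.89 ± 0.75 (17 of 18).

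Genes lying around the histone clusters were counted to describe their loci. Of 104 named genes between the histone members or among the 10 nearest on either side, 33 rose, 25 fell and 46 did not pass, with a median of 0.08, near the shares of all genes (29.9% higher, 27.9% lower). On chromosome 13, 8 of 43 such genes rose and 9 fell. For chromosome 3 the counts were 7 of 20 higher and 6 lower, and for chromosome 6 they were 7 of 20 higher and 8 lower. Chromosome 11 departed from these shares, as 11 of 21 rose and 2 fell (median 0.29), whereas its 3 Hist3 members were all called lower. Those counted on chromosome 3 include Terc, a gene targeted in every lymphoma (mean -1.47, below 0 in 18 of 18). The part of that targeting in the values of the Hist2 genes was not tested. Of the 24 non-histone genes that lie between histone members, 7 rose and 4 fell, and 12 of those 24 are vomeronasal receptor genes, of which 4 rose and 1 fell. Prss16, a protease of thymic epithelium that lies within the Hist1 region, had the mean -4.18 ± 1.40 (below 0 in 17 of 18, adjusted p 2.97e-09), and is itself among the 11 thymic epithelium markers, all of which fell.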

How the data were processed

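Ratios of 2-colour arrays of 18 lymphomas, 1 column each, were analysed. Per the labels, each sample was hybridised with its dye swap. Feature extraction, normalization and combination of the swap: not given in the sources used here. Log10 ratios were deposited, with base 10 inferred from the array maker's usage and not stated. How the RNA was primed for labelling is unstated too, so how far the ratios read messengers without a poly(A) tail is not known. Values were converted to log2 with no further scaling (column medians -0.01 to 0.04 as deposited). Of 41175 probes, 31700 name 1 gene and 37295 have values on at least 14 arrays; a gene is the mean of its probes. RefSeq (GRCm38.p6) gave former symbols, chromosomes, gene order and promoters.

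Mean ratios were compared with 0 in limma 3.58.1 (R 4.3.3; intercept, eBayes), with Benjamini-Hochberg adjustment over 18147 genes or, for probes, 37295. The reference counts as 1 control, whose spread the test leaves out. The p-values measure the spread between these samples. Named genes were the members by size of change, class, cluster, SD and opposed probes, with the 4 smallest adjusted p of each companion list. Members, lists and rules were chosen with earlier results of these data known. Alternatives covered scaling, probe choice, filters, array weights, test, direction and lymphomas left out.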

Additional observations from a re-analysis of the deposited data

How the results depend on the processing

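H1f1, H1f5, H2bc4, H2bu2, H2bc21, H2bc18, H2bc14, H2bu1-ps and H4c9 kept their direction and their call in all 31 alternatives other than turning the sign. Leaving out single lymphomas gave 8 to 11 histone genes higher and 7 to 11 lower. The exclusions of lymphomas 1, 2, 3, 5, 15, 17 and 18 and of 7, 12 and 14 were chosen after seeing the data. The former left 3 histone genes, 7 processing genes and 20 neighbours higher and 1 processing gene lower. In it H1f1 minus H1f5 was -0.093, H1f2 minus H1f4 -0.28, H1f3 minus H1f4 0.25 and H2ac20 -0.018. With 1 probe per gene, H1f3 was -0.37, H1f3 minus H1f4 -2.04, H1f5 minus H1f4 -0.11, H1f1 minus H1f4 0.043, H1f2 minus H1f3 -1.17e-05 and the Hist3 median -1.44. H1f3 minus H1f4 was 0.37 with quantile normalization, 0.40 without lymphomas 7, 12 and 14, and 0.32 to 0.45 with single lymphomas left out, losing its call without 2, 3, 7, 11, 13, 15, 16 or 18. H2ac10 was 0.023 with array weights, 0.036 without lymphomas 7, 12 and 14, and -0.090 to 0.0025 with single lymphomas left out. With the median of probes, 2 variants rose. With the sign turned, 3 processing genes were higher and 14 lower, 6 variants higher and 1 lower, 2 chaperones higher and 9 lower, and 3 S phase genes higher and 15 lower. By the sign-flip test H2bc1 had an adjusted p of 0.0534, and with arrays centred H4c14 had 0.0508. Except for the probe choice and the turned sign, which act by construction, the cause was not tested. Signal over background was not used here. The number of arrays limits the precision. The lymphomas form a single group against a shared reference, so no pairing of samples was possible. Only the H1 genes were paired, within each lymphoma.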

Other observations

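Some marker lists not described above are given beside the shares of all genes, 29.9% higher and 27.9% lower. Of 7 measured B cell markers, 2 rose and 3 fell, of 5 erythroid markers 2 rose and 1 fell, and of 7 spermatid markers 2 rose and 1 fell. Of 11 macrophage markers 1 rose and 3 fell, and of 9 fibroblast and matrix markers 1 rose and 4 fell, of which Thy1 also belongs to the T lineage list. The testis histone genes H1f6, H2ac1 and H2bc1 had means of -0.08, 0.12 and -0.41.

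Among histone variants outside the named rule, chosen after its values were seen, H2ax, whose protein is phosphorylated by Atm at DNA breaks, ran from -2.43 in lymphoma 17 to -0.03 in lymphoma 15. It was below 0 in 18 of 18 lymphomas and fell to -0.97 ± 0.88 (1.96-fold lower, limma adjusted p 3.10e-04).

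A pair of probes that name both H2ac18 and H2ac19 were not assigned to either gene and had means of -0.14 and -0.26.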
